A study of Gallus gallus with 4 samples.

Results

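Genes of neuronal differentiation were read out in whole chick (Gallus gallus) embryos at day 6, by RNA sequencing. Of 8 genes listed by symbol, 7 were found among the 13081 genes of the count table: NEUROD1, ELAVL4, DCX, MAP2, GAP43, SNAP25 and SYT1. The 8th, NEUROD4, was not analysed here. Treatment was given at stage 8 of the Hamburger-Hamilton series, and each condition has 1 library: DMSO solvent (called control), thalidomide at 40 µg/ml, spermine NONOate at 10 µM, and both agents together (called the combination). Thalidomide is a teratogenic drug that acts through the ubiquitin ligase receptor cereblon, and spermine NONOate is a nitric oxide donor. The study asked what a nitric oxide donor does to gene expression in embryos that also received thalidomide. The sources used here do not give the strain or sex, or say if embryos were pooled.

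A neuron is born when proneural basic helix-loop-helix factors drive a dividing progenitor out of the cell cycle and switch on a neuronal programme. RNA-binding proteins of the ELAV family then stabilise neuronal transcripts, microtubule-associated proteins such as doublecortin and MAP2 shape the migrating cell and its neurites, and GAP-43 loads the growth cone. Vesicle release proteins such as SNAP-25 and synaptotagmin-1 serve transmitter release in maturing neurons, and endocrine cells use them too.

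The libraries held 62576258 to 79359076 reads in genes. Levels are given in CPM, read counts scaled to library size, after TMM normalisation between libraries. The 7 genes had 872 to 26418 reads per library, so the exact 95% Poisson interval of a level spans 1.21% to 6.70% either way. These intervals cover counting error alone. No condition has a second library, so no difference below has a replicate check, no p-value was computed, and every comparison is between libraries rather than conditions. In whole embryos, fewer neurons and less RNA per neuron cannot be told apart. All 292 genes found from 18 further lists had reads in the 4 libraries, among them markers of neurons, liver, red blood cells, muscle, lens and cartilage.

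The 7 genes did not move together. MAP2, DCX, ELAVL4 and SYT1 had their highest level in the combination library, GAP43 and SNAP25 in the spermine NONOate library, and NEUROD1 in the control library. The thalidomide library was lowest for GAP43, SNAP25 and NEUROD1, the control library for MAP2, ELAVL4 and SYT1, and the spermine NONOate library for DCX. These orders are those with TMM scaling. DCX spanned 4.61-fold from its lowest to its highest library and NEUROD1 3.06-fold, while ELAVL4 spanned 1.56-fold.

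**Figure D1:**
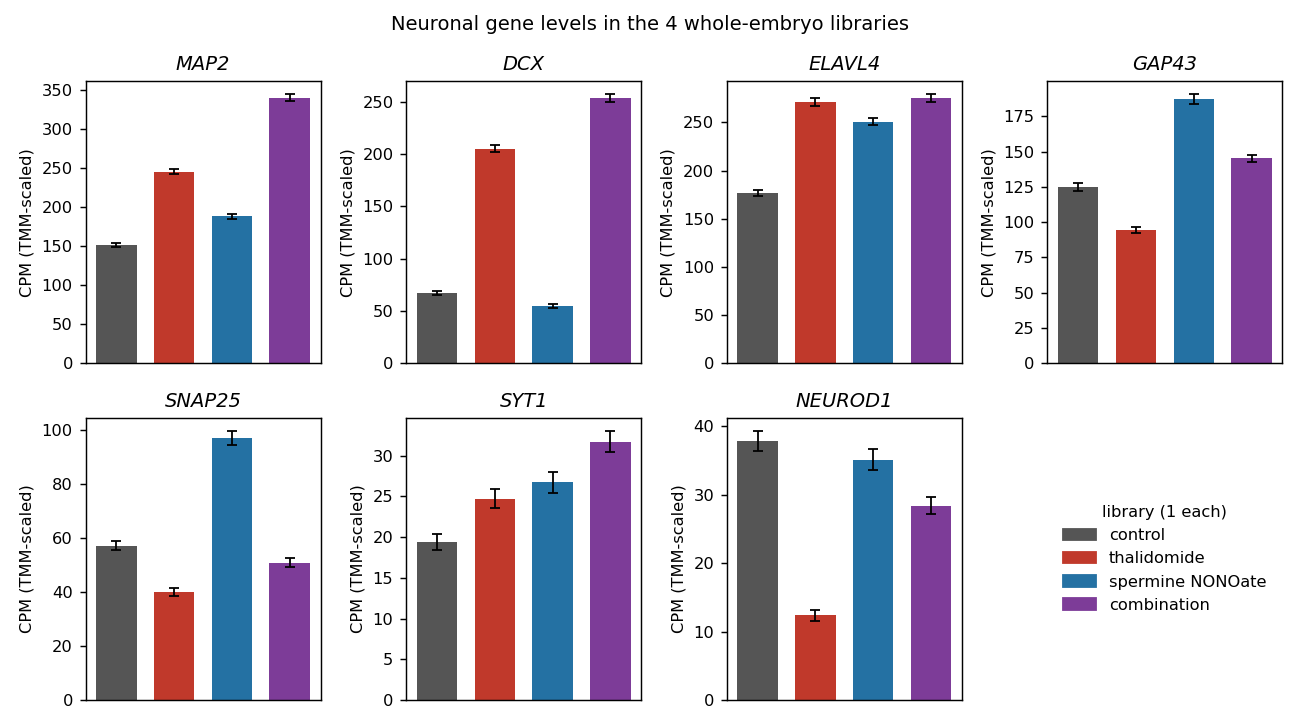
Level of each neuronal gene (y axis, TMM-scaled CPM, starting at 0) in the 4 libraries (bars, 1 library each); error bars are exact 95% Poisson counting intervals, not replicate spread. DCX stands at 205 and 253 CPM in both libraries with thalidomide against 67.4 and 55.04 CPM in those without, and NEUROD1 is lowest with thalidomide alone at 12.4 CPM.

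NEUROD1 (ENSGALG00000008908, chromosome 7, plus strand) encodes a basic helix-loop-helix factor of neuronal, retinal and pancreatic endocrine differentiation. Its level was 37.9 CPM in the control library, 12.4 in the thalidomide library, 35.1 in the spermine NONOate library and 28.4 in the combination. With TMM scaling the thalidomide library thus stood lowest, and the combination lay below control and spermine NONOate, with counting intervals that do not overlap. Calls were made by size. The ratio of both libraries (after adding 0.5 reads to each) had to reach 2-fold, the larger count had to be 20 or more, and the exact 95% conditional-binomial interval had to exclude 1. By this rule of size NEUROD1 was lower in the thalidomide library than in control, 3.06-fold (log2 -1.61, interval -1.73 to -1.505), and higher in the combination than with thalidomide alone, 2.30-fold (log2 1.20, 1.09 to 1.32). Centred on the median of cytosolic ribosomal protein genes, the ratio for thalidomide against control was -0.61, which did not pass the rule. The combination then stood above control and above spermine NONOate. With spermine NONOate present in both libraries and TMM scaling, the log2 ratio for thalidomide was -0.30 (-0.39 to -0.22), which did not pass the rule. The ratios with and without spermine NONOate differed by log2 1.31, with a counting interval of 1.17 to 1.45. This was the widest such difference among the 7 genes.

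Of its paralogs, NEUROD6, a factor of the same family, had 31.1, 6.66, 35.7 and 19.03 CPM in control, thalidomide, spermine NONOate and combination. It was lower with thalidomide (log2 -2.22, -2.37 to -2.08) and higher in the combination than with thalidomide alone (1.51, 1.36 to 1.67). NEUROG1, an upstream proneural factor, had 5.20, 4.28, 3.26 and 6.50 CPM in the same order and passed the rule in none of the 5 comparisons. Among the 13 other neurogenic transcription factors found, thalidomide against control gave 1 higher and 3 lower, beside 9.22% and 7.23% of all genes tested. The lower ones were NEUROD6, ATOH7 (-1.49), the factor of retinal ganglion cell birth, and TBR1 (-1.15), a factor of cortical projection neurons. ST18, a zinc finger factor, was the higher one (1.06). In this comparison cytosolic ribosomal protein genes had a median of -1.002, and a list of long mRNAs of general cell functions 1.05. The ratios of these factors were not centred on either. The same 3 that were lower with thalidomide were the 3 called higher in the combination than with thalidomide alone, at 1.51, 1.14 and 1.40. In the combination against thalidomide 3.74% of all genes tested were higher. Both comparisons share the thalidomide library. In the combination against control ST18 (1.18) and MYT1L (1.01) were higher and none was lower, beside 10.1% and 4.16% of all genes tested. Against spermine NONOate, ST18 (1.33), MYT1 (1.28) and SOX11 (1.23) were higher and none was lower, beside 9.84% and 6.03%. The long-mRNA list had medians of 0.94 and 1.10 in these comparisons. For spermine NONOate against control none was called, beside 4.33% of genes higher and 1.33% lower.

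NEUROD1, NEUROD6 and ATOH7 are also made in the retina, and retinal markers moved in these libraries as well. Of 14 retinal genes, 4 were lower and 2 higher in the thalidomide library than in control (median log2 -0.47). Among all genes tested 7.23% were lower and 9.22% higher. RBP3, the photoreceptor retinoid-binding protein, was lower (log2 -3.70, -4.41 to -3.12, 23 against 316 reads), as were RXRG, a nuclear receptor of cone photoreceptors (-1.597), and VSX1, a bipolar cell factor (-1.45). ARR3, cone arrestin, was higher on few reads (2.06, 54 against 13). With both agents against thalidomide alone, RBP3 (2.65), RXRG (1.08) and PDE6H (1.28), a cone phosphodiesterase subunit, were higher, and ARR3 was lower (-2.38). Of all genes tested, 3.74% were higher and 1.26% lower there. The summed level of the 14 genes was 288, 170, 245 and 230 CPM in control, thalidomide, spermine NONOate and combination. All 7 lens genes were lower with thalidomide too (median -2.43). The part of retina or eye RNA in the NEUROD1 ratio was not tested.

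ELAVL4 (ENSGALG00000010533, chromosome 8, plus strand) encodes HuD, which binds AU-rich elements in neuronal mRNAs. Its level was 177 CPM in control, 271 with thalidomide, 251 with spermine NONOate and 275 in the combination. With TMM scaling the control library stood lowest, spermine NONOate next, and the intervals of the thalidomide and combination libraries overlap. Against control the log2 ratios were 0.62 for thalidomide, 0.51 for spermine NONOate and 0.64 for the combination, none past the rule. Centred on the median of the list of long mRNAs, those for thalidomide (-0.43) and for the combination fell below 0. For the combination against thalidomide the log2 ratio was 0.021, with an interval of -0.0071 to 0.049 that includes 0. Of 7 other neuronal RNA-binding protein genes none passed the rule in any of the 5 comparisons. Shares of all genes tested ran there from 3.74% to 10.1% higher and from 1.26% to 7.23% lower. The largest ratio was that of RBFOX2, a splicing factor, at 0.99 in the combination against spermine NONOate, where MSI2 stood at 0.66. NOVA1, another neuronal splicing factor, stood at 0.64 in the combination against control.

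DCX (ENSGALG00000007993, chromosome 4, plus strand) encodes doublecortin, a microtubule-binding protein of migrating, newly born neurons. It had 67.4 CPM in control, 205 with thalidomide, 55.04 with spermine NONOate and 253 in the combination. Both libraries with thalidomide were high and both without it were low, with no overlap. DCX was 3.04-fold higher with thalidomide than in control (log2 1.605, 1.56 to 1.65) and 4.60-fold higher in the combination than with spermine NONOate alone (2.20, 2.15 to 2.26). These comparisons share no library. It passed the rule in the combination against control as well (1.91, 1.87 to 1.956). Centred on the median of the list of long mRNAs, the ratio for thalidomide against control was 0.55, which did not pass the rule. Nor did the ratio for the combination against control, while that for the combination against spermine NONOate still passed. Its paralog DCLK1, a doublecortin-like kinase, had 59.8, 55.9, 56.1 and 76.4 CPM in control, thalidomide, spermine NONOate and combination, and its log2 ratio for thalidomide against control was -0.097.

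MAP2 (ENSGALG00000002789, chromosome 7, plus strand) encodes the microtubule-associated protein of dendrites. Its level was 151 CPM in control, 246 with thalidomide, 188 with spermine NONOate and 340 in the combination. With TMM scaling the order was control, spermine NONOate, thalidomide, combination, with counting intervals that do not overlap. MAP2 was called higher only in the combination against control, 2.25-fold (log2 1.17, 1.14 to 1.20), of the 5 comparisons made. Centred on the median of a list of long mRNAs of general cell functions, that ratio was 0.22, which did not pass the rule. The ratio for thalidomide against control was then -0.35. The log2 ratio was 0.70 for thalidomide against control and 0.85 for the combination against spermine NONOate, where it passed the rule with libraries scaled to total counts (1.01). The ratios for spermine NONOate were 0.32 without thalidomide and 0.47 with it.

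GAP43 (ENSGALG00000015089, chromosome 1, minus strand) encodes a membrane phosphoprotein of growing axons. It had 125 CPM in control, 94.4 with thalidomide, 187 with spermine NONOate and 145 in the combination. Each library with spermine NONOate was above its counterpart without it. Each with thalidomide was below its counterpart, and it was this order for thalidomide that turned when centred on ribosomal protein genes. The log2 ratio for spermine NONOate was 0.58 (0.54 to 0.62) without thalidomide and 0.62 (0.58 to 0.66) with it, and those for thalidomide were -0.40 and -0.37. The difference between the ratios with and without the other agent was 0.038, with a counting interval of -0.021 to 0.097. None of these ratios passed the rule of size.

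SNAP25 (ENSGALG00000009003, chromosome 3, minus strand) encodes a plasma membrane SNARE protein that drives vesicle fusion. Its level was 57.1 CPM in control, 40.1 with thalidomide, 96.9 with spermine NONOate and 50.7 in the combination. With TMM scaling the spermine NONOate library stood apart above the rest. The log2 ratio of that library to control was 0.76 (0.70 to 0.82), a 1.70-fold ratio, short of the rule. The combination lay below spermine NONOate alone at -0.93 (-0.99 to -0.87), also short of it. Centred on ribosomal protein genes, the sign of this ratio turned. The ratio for thalidomide against control then turned as well, from -0.51 to 0.49. The widely expressed paralogs SNAP23 and SNAP29 had log2 ratios of 0.036 and 0.48 for spermine NONOate against control, and of 0.15 and -0.030 for thalidomide against control.

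SYT1 (ENSGALG00000010319, chromosome 1, plus strand) encodes synaptotagmin-1, the calcium sensor of synaptic vesicles. It had 19.4 CPM in control, 24.7 with thalidomide, 26.7 with spermine NONOate and 31.7 in the combination. With TMM scaling all 3 treated libraries were above control, and the intervals of the thalidomide and spermine NONOate libraries overlap. The log2 ratios against control were 0.35, 0.46 and 0.71 in that order, none past the rule. Centred on the median of the list of long mRNAs, the ratios for thalidomide (-0.70) and for the combination fell below 0.

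DCX, MAP2 and NEUROD1 passed the rule in at least 1 comparison, and the other neuronal genes in none. With 7 genes a share says little beside that of the whole table. In thalidomide against control 1 of 7 was higher (DCX) and 1 lower (NEUROD1), beside 9.22% and 7.23% of 12138 genes tested. With spermine NONOate against control none of 7 was called, beside 4.33% of genes higher and 1.33% lower. In the combination against control 2 of 7 were higher (DCX and MAP2), beside 10.1%, and none was lower, beside 4.16%. Against thalidomide, the combination had 1 of 7 higher (NEUROD1), beside 3.74%, and none lower, beside 1.26%. Against spermine NONOate it had 1 of 7 higher (DCX), beside 9.84%, and none lower, beside 6.03%. The median log2 ratios of the 7 genes in these 5 comparisons were 0.35, 0.46, 0.64, 0.36 and 0.13, where those of all genes tested were -0.012, -0.046, -0.0023, 0.00016 and 0.0095.

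**Figure D2:**
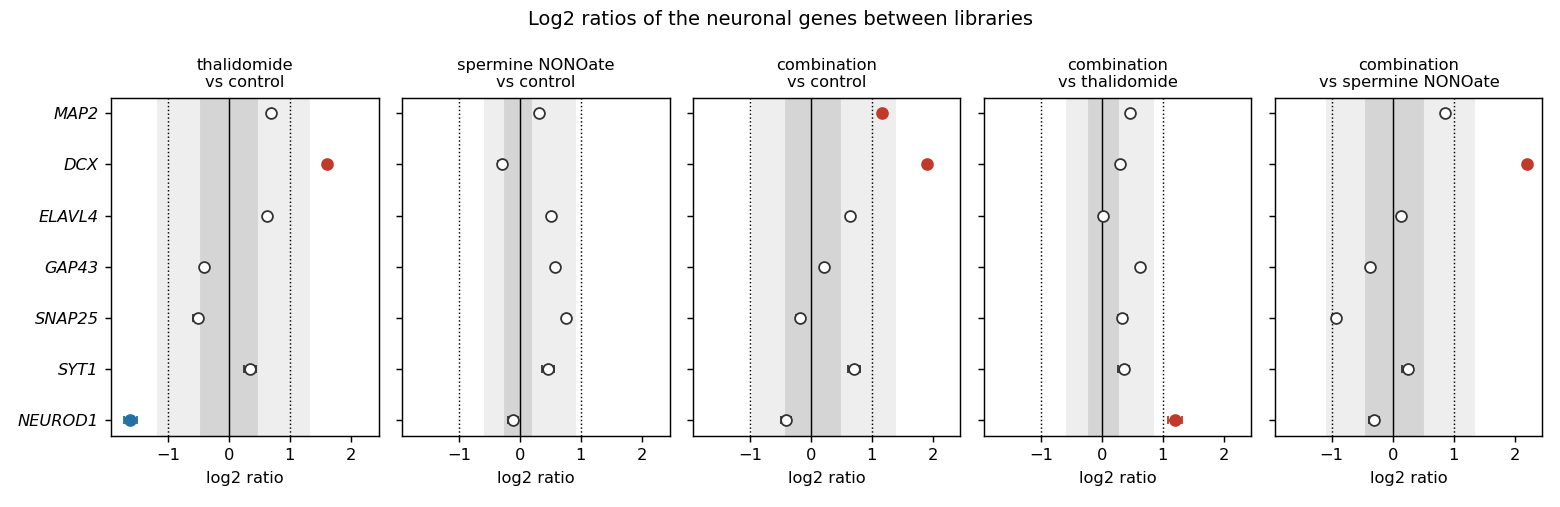
Log2 ratio of each neuronal gene (x axis) in the 5 library comparisons (panels), with exact 95% counting intervals; filled red points were called higher, filled blue points lower, and open points were not called. Dark and light grey bands hold the middle 50% and 90% of all genes tested, and dotted lines mark 2-fold; DCX lies beyond the light band in the 3 comparisons that set thalidomide against its absence.

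The authors' deposited table gives the same calls when a 2-fold ratio and an unadjusted p under 0.05 are asked of it. Its p-values come from the same counts, with 1 library per condition, so they are no replicate check and no independent support. In the authors' deposited table DCX has p = 0.00402 for thalidomide against control, 0.000502 for the combination against control and 0.000651 for the combination against spermine NONOate. NEUROD1 has p = 0.0213 for thalidomide against control and 0.00416 for the combination against thalidomide in the authors' deposited table, and MAP2 has p = 0.0322 for the combination against control. By that rule 3.25% of genes were higher and 1.72% lower with thalidomide, 3.83% were higher in the combination against control, 2.07% in the combination against thalidomide and 3.13% in the combination against spermine NONOate. Lower calls by it were 1.14%, 0.53% and 1.67% of genes in these last 3 comparisons, and for spermine NONOate against control 2.75% were higher and 0.486% lower. In the authors' deposited table SNAP25, GAP43 and ELAVL4 were also under 0.05 for spermine NONOate against control, at folds of 1.74, 1.54 and 1.46. So was GAP43 for the combination against thalidomide, at a fold of 1.54.

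The design crosses both agents, so each agent's ratio can be read with and without the other in pairs of libraries that have none in common. With TMM scaling the sign of the thalidomide ratio was the same in both pairs for 7 of 7 genes: positive for MAP2, DCX, ELAVL4 and SYT1, and negative for GAP43, SNAP25 and NEUROD1. These signs depend on the scaling for 6 of the 7. Centred on the long-mRNA list, the ratios without and with spermine NONOate were -0.35 and -0.25 for MAP2, -0.43 and -0.97 for ELAVL4, and -0.70 and -0.86 for SYT1. Centred on ribosomal protein genes they were 0.60 and 0.65 for GAP43, 0.49 and 0.079 for SNAP25, and -0.61 and 0.71 for NEUROD1. DCX stayed above 0 in both pairs under either centring. With TMM scaling all 43 genes of the long-mRNA list were also above 0 in both pairs. The share of all genes that keep their sign between pairs was not computed for either agent. A count of 7 of 7 is therefore not shown to be particular to these genes. The sign of the spermine NONOate ratio was the same for 5 of 7, the exceptions being DCX (-0.29 without thalidomide, 0.31 with it) and NEUROD1 (-0.11 and 1.20, where the first was 0.10 when centred on the long-mRNA list). For the combination against thalidomide all 7 ratios were above 0, where 50.01% of all genes tested were, though for ELAVL4 the interval includes 0. ELAVL4 and SNAP25 had a lower thalidomide ratio with spermine NONOate present than without, by log2 -0.49 (-0.53 to -0.44) and -0.42 (-0.51 to -0.33). DCX and MAP2 had a higher one, by 0.60 (0.53 to 0.67) and 0.16 (0.11 to 0.20).

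**Figure D3:**
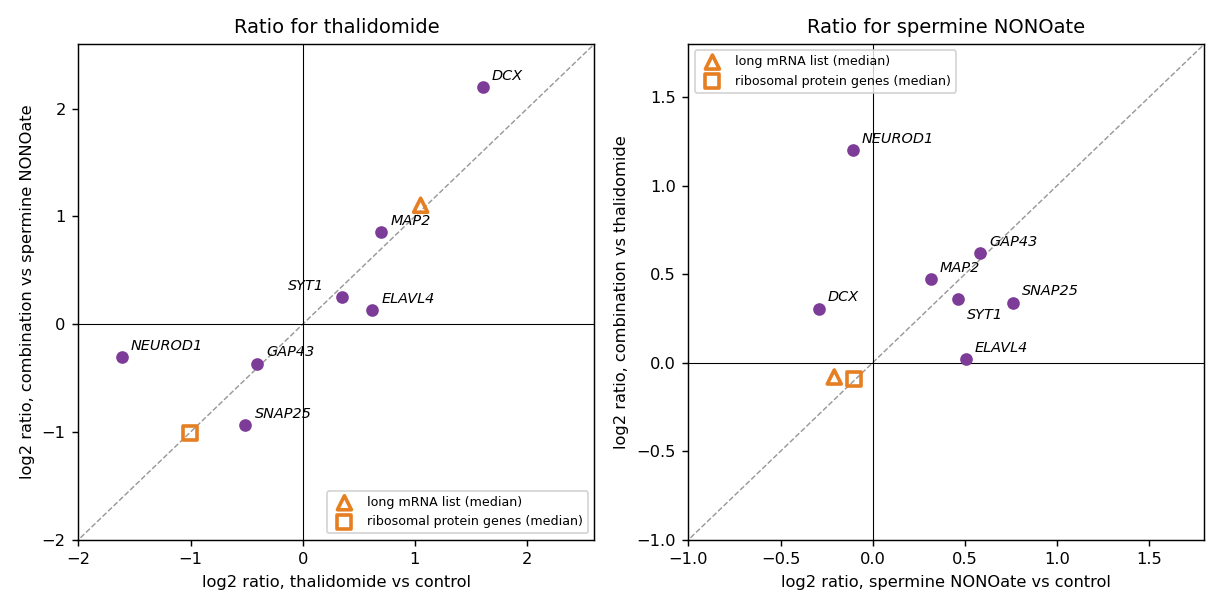
Log2 ratio for thalidomide (left) and for spermine NONOate (right) of each neuronal gene, without the other agent (x axis) and with it (y axis); the dashed line marks equal ratios, and open orange symbols are medians of 43 long-mRNA genes and 50 ribosomal protein genes. NEUROD1 lies farthest from the line in both panels.

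Differences between genes within a comparison do not depend on how libraries are scaled. In thalidomide against control the log2 ratio of DCX exceeded that of SNAP25 by 2.12 (2.03 to 2.20), a 4.33-fold divergence, and in the combination against spermine NONOate by 3.14 (3.06 to 3.22), or 8.79-fold. For spermine NONOate against control the divergence ran the other way, at -1.05 (-1.14 to -0.97). MAP2 diverged from GAP43 by 1.10 for thalidomide against control and by 1.22 in the combination against spermine NONOate. Beside these divergences, the libraries with thalidomide differed from those without by transcript class. In thalidomide against control, all 43 genes of a list of long mRNAs of general cell functions had a ratio above 0, with a median of 1.05 and 23 called higher, and all 50 cytosolic ribosomal protein genes, which have short mRNAs, were below 0, with a median of -1.002 and 25 called lower. Among all genes tested 9.22% were higher and 7.23% lower in thalidomide against control. For the combination against spermine NONOate the medians of these lists were 1.10 and -1.01, and in spermine NONOate against control -0.21 and -0.10. The lengths of the 7 transcripts were not used here, and the part of transcript length in their ratios was not tested. Centred on the median of the long-mRNA list, DCX had a ratio of 0.55 for thalidomide against control, which did not pass the rule, 0.97 in the combination against control, which did not either, and 1.10 in the combination against spermine NONOate, which did.

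Other cytoskeletal and adhesion genes of young neurons gave 1 called gene of 15 for thalidomide against control. Only 5 of the 15 had ratios above 0 there (median -0.23), beside 49.4% of all genes tested. MAP1A, a large microtubule-associated protein, was higher at log2 1.03 (0.99 to 1.06). The whole table had 9.22% of genes higher and 7.23% lower there. MAP1A was also higher in the combination against control (1.31) and against spermine NONOate (1.45), where UCHL1, a neuronal ubiquitin hydrolase, was lower (-1.17). The median of the 15 was 0.19 in the former comparison (10 above 0) and -0.21 in the latter (5 above 0). In the comparisons where MAP1A was called, the long-mRNA list had medians of 1.05, 0.94 and 1.10, in the same order. The MAP1A ratios were not centred on that list. None of the 15 was called for spermine NONOate against control, where 13 had ratios above 0 (median 0.29), beside 43.8% of all genes tested. The largest there were NEFH, a neurofilament subunit (0.97), and STMN2, a tubulin-binding protein of growth cones (0.73). None was called in the combination against thalidomide either, where STMN3 stood at 0.92 and DPYSL3 at 0.72. Of all genes tested there, 3.74% were higher and 1.26% lower, and 4.33% and 1.33% for spermine NONOate against control.

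Of 27 other genes of synaptic vesicle release, 6 were higher and 3 lower with thalidomide against control (median 0.22). The shares of all genes tested were 9.22% and 7.23%. SYT13, an atypical synaptotagmin (1.78), and PCLO, the giant active zone scaffold piccolo (1.48), were higher, and the synucleins SNCB (-1.57) and SNCG (-1.53) were lower. For spermine NONOate against control none of the 27 was called, 23 had ratios above 0 and the median was 0.27. Across all genes tested 43.8% were above 0 there, 4.33% were called higher and 1.33% lower. SNAP91 (0.89) and AMPH (0.83), both of vesicle endocytosis, were the largest. When both agents were set against control, PCLO (1.74), SYT13 (1.86) and BSN, the scaffold bassoon (1.05), were higher and SNCB lower (-1.01). Of all genes tested, 10.1% were higher and 4.16% lower there. The long-mRNA list had medians of 1.05 for thalidomide against control and 0.94 for the combination against control. The PCLO and BSN ratios were not centred on that list. Against spermine NONOate alone the combination had 3 higher and 2 lower, SNCB (-1.66) among the latter. The whole table had 9.84% of genes higher and 6.03% lower there. SNCG alone of these 27 was called in the combination against thalidomide (1.09), where 3.74% of all genes tested were higher.

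Endocrine cells also use SNAP25 and SYT1. For spermine NONOate against control 3 of 12 endocrine genes tested were higher (median 0.51), beside 4.33% of all genes tested. They were SCG2, secretogranin II (1.29), GCG, proglucagon (1.41), and POMC, the corticotropin precursor (1.69). The summed level of the 13 endocrine genes found was 515, 488, 769 and 552 CPM in control, thalidomide, spermine NONOate and combination. With thalidomide against control SST, somatostatin, was lower (-1.66) and PTPRN2, a secretory granule phosphatase-like protein, was higher (1.33). Below spermine NONOate alone, in the combination, were SCG5 (-1.13), SCG2 (-1.04) and POMC (-1.30), and PTPRN2 was above it (1.30, 2711 against 854 reads). Among all genes tested 7.23% were lower and 9.22% higher with thalidomide against control, and 6.03% and 9.84% in the combination against spermine NONOate. The long-mRNA list had medians of 1.05 and 1.10 in these comparisons, and the PTPRN2 ratios were not centred on it. The part of endocrine RNA in the SNAP25 and SYT1 ratios was not tested.

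Of 16 genes of transmitter identity, 6 were higher and none lower for thalidomide against control (median 0.78), beside 9.22% and 7.23% of all genes. They included SLC6A5, the neuronal glycine transporter (2.51, 201 against 36 reads), SLC5A7, the choline transporter (1.72), SLC17A6, the vesicular glutamate transporter of early neurons (1.25), and TH, tyrosine hydroxylase (1.29). For spermine NONOate against control 15 of these genes were tested. SLC32A1, the vesicular inhibitory amino acid transporter (1.24), and SLC18A3, the vesicular acetylcholine transporter (1.18), were higher. So was SLC6A5 (1.31, 74 against 36 reads), and TPH1, tryptophan hydroxylase, was lower (-1.18). Of all genes tested, 4.33% were higher and 1.33% lower there. Against control the combination had 6 of 16 higher, among them GAD2, a GABA-synthesising enzyme (1.04), beside 10.1% of all genes tested. None was called in the combination against thalidomide, and 2 were higher against spermine NONOate, TPH1 (1.72) and SLC6A5 (1.03). The whole table had 3.74% of genes higher and 1.26% lower in the former comparison, and 9.84% higher in the latter. Medians of the long-mRNA list were 1.05 for thalidomide and 0.94 for the combination, against control. The ratios of the transmitter genes were not centred on that list.

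**Figure D4:**
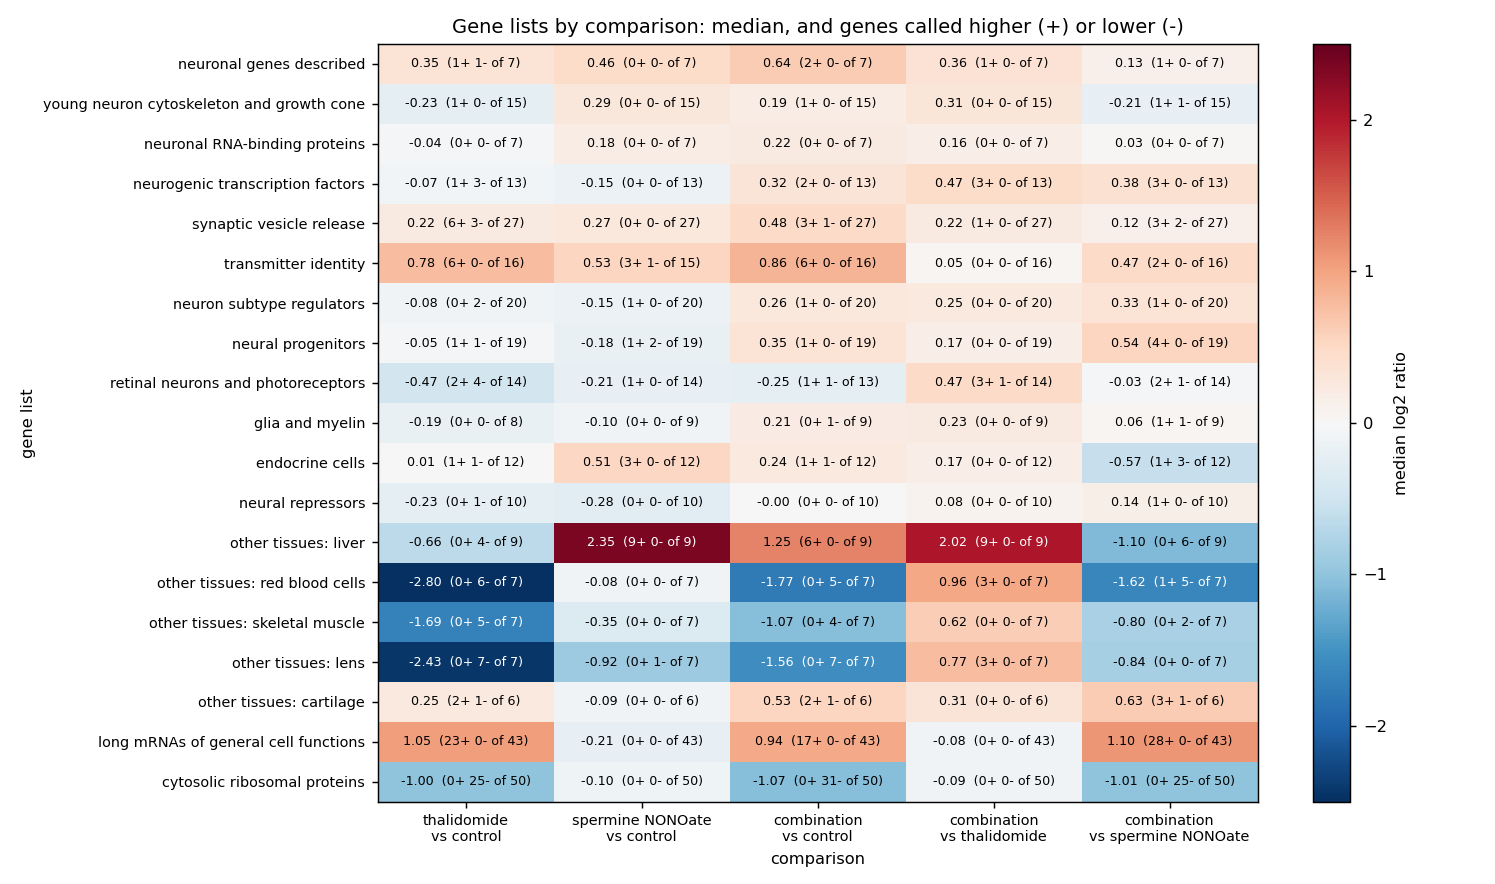
Median log2 ratio of each gene list (rows) in the 5 library comparisons (columns); each cell gives the median, and in brackets the genes called higher (+) and lower (-) of those tested. Colours stop at 2.5 in either direction; liver genes reach 2.35 for spermine NONOate against control while the neuronal genes described have medians from 0.13 to 0.64.

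Neural progenitor genes had medians of -0.053 for thalidomide and -0.18 for spermine NONOate against control. With thalidomide 1 of 19 was higher and 1 lower, beside 9.22% and 7.23% of all genes tested. With spermine NONOate 1 was higher and 2 lower, beside 4.33% and 1.33%. PAX2, of kidney and of midbrain-hindbrain progenitors, was the higher one in both (2.04 and 1.40). OTX2, of forebrain and eye, was lower with thalidomide (-1.37), and DBX1 (-1.18) and PAX7 (-1.10), of spinal cord domains, with spermine NONOate. Set against spermine NONOate, the combination had 4 of 19 higher and none lower, DBX1 (1.65) and PAX7 (1.501) among them. The shares of all genes tested were 9.84% and 6.03%. Of 10 neural repressor genes, ID4, an inhibitor of basic helix-loop-helix factors, was lower with thalidomide against control (-1.27). REST, the repressor of neuronal genes in other tissues, was higher in the combination against spermine NONOate (1.13). The long-mRNA list had a median of 1.10 in that comparison, and the REST ratio was not centred on it. No repressor was called in the other 3 comparisons. Over the 5 comparisons, shares of all genes tested ran from 3.74% to 10.1% higher and from 1.26% to 7.23% lower.

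Lists of other tissues had larger medians in several comparisons. Red blood cell genes had a median log2 ratio of -2.80 for thalidomide against control (6 of 7 lower). The medians were -1.69 for skeletal muscle genes (5 of 7 lower) and -0.66 for liver genes (4 of 9 lower). Among all genes tested 7.23% were lower there. Liver genes were 9 of 9 higher for spermine NONOate against control (median 2.35) and in the combination against thalidomide (2.02). The shares of all genes tested were 4.33% and 3.74%. Cartilage genes lay at 0.25 with thalidomide and -0.095 with spermine NONOate against control. A level in CPM is a share of the library, and the part of these tissues in the shares of the neuronal genes was not tested.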

How the data were processed

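Total RNA of 4 libraries was isolated with Trizol; library preparation followed the maker's usual Illumina steps, per the labels' protocols. TopHat2 version 2.0.8, DESeq and the build galGal4 are named in the submitters' processing notes. Gene models came from Ensembl release 75, per the file headers. How reads were counted, and with what regard to strand, is not given in the sources used here: reads of overlapping genes may be mixed. The authors deposited raw read counts per gene for chromosomes 1 to 21, with their own fold (ratio), log2 fold and unadjusted p-value in 5 comparisons.

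Genes were matched by symbol; of 420 genes in 18 lists, 292 were found, 2 by an older symbol from a RefSeq table of assembly GRCg7b. Counts were scaled with TMM (edgeR 4.0.16, R 4.3.3). With 1 library per condition no p-value was computed; differences of ratios have normal-approximation counting intervals. The calling rule was tested on simulated counts. These were Poisson counts with known scaling and no spread between embryos or libraries, so they cannot show how the rule fares with replicate spread. Genes named are the members, up to 4 called genes per list and comparison (or the 2 largest of at least 100 reads where none was called), and paralogs; some genes this rule names are left out. Members and lists were chosen with earlier results of these data known; the long-mRNA and ribosomal lists were added last. Alternatives were other scalings, minimum reads, fold thresholds, summed rows, the authors' table and centring on the added lists.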

Additional observations from a re-analysis of the deposited data

Results flagged for a closer look

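DCX and NEUROD1 had spermine NONOate ratios of opposite sign without and with thalidomide, with counting intervals on opposite sides of no change. The log2 ratio of DCX was -0.29 for spermine NONOate against control and 0.31 for the combination against thalidomide. That of NEUROD1 was -0.11 for spermine NONOate against control and 1.20 for the combination against thalidomide. The first of these was 0.10 when centred on the long-mRNA list, so its opposite sign depends on the scaling. With 1 library per condition these differences were not tested. Apart from the 1.20 of NEUROD1 in the combination against thalidomide, none of these ratios passed the rule of size.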

How the results depend on the processing

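No paired analysis was possible because each condition has 1 library, and no library could be left out. Across the 5 comparisons, the calls of the 7 genes kept their counts with relative log expression, upper quartile or TMM scaling without the 50 most abundant genes, with a minimum of 100 reads or none, with summed rows and by the authors' table. Total counts moved the median of the 7 genes to 0.55 for thalidomide against control, 0.86 for the combination against control and 0.29 for the combination against spermine NONOate, where 2 genes were then higher; the median of all genes moved by 0.20, 0.22 and 0.16. Without the 50 most abundant genes the median for the combination against control was 0.68. At 1.5-fold, 3 genes were higher with thalidomide, 1 with spermine NONOate and 4 in the combination, against control; 2 were higher in the combination against thalidomide, and 2 higher and 1 lower against spermine NONOate. At 3-fold, 1 was higher in the combination against control and 0 against thalidomide. Centring on the long-mRNA list, added after earlier results were known, left 0 higher and 3 lower with thalidomide and 0 higher and 2 lower in the combination, against control, and 3 lower in the combination against spermine NONOate. Centring on ribosomal protein genes, also added, gave 4 higher and 0 lower with thalidomide, 5 higher in the combination against control and 4 against spermine NONOate. The share of all genes called was not computed with total counts, at 1.5-fold, at 3-fold or under either centring. These counts are therefore not shown to be particular to the 7 genes. Centring on transcript length itself was not run. The cause of these changes was not tested beyond how each alternative is built.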

Other observations

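Of 20 subtype regulators, MNX1, of motor neurons (log2 -1.08), and GATA3 (-1.03) were lower with thalidomide against control, and DRGX, of sensory circuits, was higher in the combination against control (1.19). The medians of the 20 in these comparisons were -0.079 and 0.26. Among all genes tested 7.23% were lower in the former and 10.1% higher in the latter. RUNX1 was the 1 subtype regulator called in the combination against spermine NONOate (1.12), and none was called against thalidomide. All genes tested had 9.84% higher in the former, and 3.74% higher and 1.26% lower in the latter. Of the 9 glial and myelin genes found, none was called with either agent alone against control. Of them, 8 were tested for thalidomide and 9 for spermine NONOate. Among all genes tested 9.22% were higher and 7.23% lower with thalidomide, and 4.33% and 1.33% with spermine NONOate. S100B, a glial calcium-binding protein, was lower in the combination on few reads, against control (-1.12, 34 against 70) and against spermine NONOate (-1.44, 34 against 72), and SOX9, also of cartilage, was higher in the combination against spermine NONOate (1.09). In these comparisons 4.16% and 6.03% of all genes tested were lower, and 9.84% were higher against spermine NONOate. The long-mRNA list had a median of 1.10 in the combination against spermine NONOate, and the RUNX1 and SOX9 ratios were not centred on it.

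For the 3 neuronal genes called in any comparison, the genes with the most similar profile were looked up among 9233 genes with a symbol and at least 100 reads in every library, by the root mean square difference of centred log2 CPM over the 4 libraries. Nearest to DCX were FAT3, a giant cadherin (0.030), PLXNA4B, a semaphorin receptor (0.071), and POU2F1, a POU domain factor (0.082). Nearest to MAP2 were SLC4A11 (0.030), SAMD12 (0.031) and CELSR3, a cadherin of axon guidance (0.051). Nearest to NEUROD1 were C11ORF96 (0.049), GATSL3 (0.055) and RXRG (0.095). FAT3 had 50.8 CPM in control, 153 with thalidomide, 39.3 with spermine NONOate and 185.5 in the combination. A likeness over 4 libraries is a description only.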
